A study of Mus musculus with 30 samples.

Results

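The response of control bone marrow-derived dendritic cells to 6 h of lipopolysaccharide (LPS) was measured on 10 of the 30 arrays of the series. The members were chosen by their titles: 5 arrays of CD11c-Cre cells stimulated with LPS for 6 h, replicates 1 to 5 (A to E in the titles), and 5 arrays of unstimulated CD11c-Cre cells, replicates 1 to 5. The cells were grown from the bone marrow of C57BL/6 mice that carry the CD11c-Cre transgene, so both groups express Cre recombinase under the promoter of CD11c, an integrin subunit of dendritic cells and some macrophages. The other arrays hold control cells after 24 h of LPS and CD11c-Cre IRF-4 flox/flox cells, called KO in the labels, at the same times. After stimulation, CD11c+ cells were selected with magnetic beads, so the RNA is that of a selected population and not of sorted single subsets. The LPS dose and the culture factors are not given in the sources used here, nor is the source of a replicate (separate mice or separate cultures). The p-values therefore measure the scatter among the arrays, which may in part be technical. Each array set the Cy5-labelled sample against a Cy3-labelled universal mouse reference RNA, and every value below is either a log2 ratio of sample over reference or a difference of such ratios, LPS 6 h minus unstimulated. The reference is the same for every array, so ratios of one probe can be compared between arrays, but ratios of different probes cannot be ranked as levels.

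LPS, a glycolipid of the outer membrane of Gram-negative bacteria, is handed by CD14 to the receptor TLR4 and its partner MD-2, the product of Ly96. TLR4 signals through the adaptor MyD88 to NF-kB and AP-1, which drive genes of inflammatory cytokines and chemokines, and through the adaptor TRIF to IRF3, which drives interferon beta. Secreted interferon then acts through STAT factors and IRF9 on genes with an interferon-stimulated response element (ISRE), and activated dendritic cells mature: they raise costimulatory ligands, lose much of their uptake activity and migrate towards lymph nodes.

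The largest rise was that of Cxcl10, an interferon-induced chemokine for T cells that carry CXCR3, followed by the antiviral genes Ifit1, Rsad2, Ifit2 and Isg15. Promoters are shown for these 5 genes and for Il6 (interleukin 6), the seventh in rank, as they were among the 7 largest rises. That of Iigp1, the sixth in rank, is not shown. Each line gives 250 bases before to 50 bases after the annotated start, 5′ to 3′ on the strand of the gene, from RefSeq on build GRCm38.p6. Capitals mark matches to GGGA, any 4 bases and CC for NF-kB, to GAAA, any 2 bases and GAAA for ISRE, and to TGANTCA for AP-1, searched on both strands.
Cxcl10, chr5:92348840-92349139, minus strand: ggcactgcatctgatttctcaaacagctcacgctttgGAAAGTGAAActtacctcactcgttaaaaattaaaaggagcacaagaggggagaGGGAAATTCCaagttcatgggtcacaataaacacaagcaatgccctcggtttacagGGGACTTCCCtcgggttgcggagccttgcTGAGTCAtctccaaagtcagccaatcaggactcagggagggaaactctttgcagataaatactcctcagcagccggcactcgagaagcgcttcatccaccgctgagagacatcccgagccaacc
Ifit1, chr19:34640639-34640938, plus strand: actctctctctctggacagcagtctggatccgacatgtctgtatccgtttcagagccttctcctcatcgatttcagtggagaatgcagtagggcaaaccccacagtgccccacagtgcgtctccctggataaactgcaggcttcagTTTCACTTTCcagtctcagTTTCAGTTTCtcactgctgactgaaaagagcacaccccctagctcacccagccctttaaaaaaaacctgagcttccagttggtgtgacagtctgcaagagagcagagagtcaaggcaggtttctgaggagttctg
Rsad2, chr12:26456403-26456702, minus strand: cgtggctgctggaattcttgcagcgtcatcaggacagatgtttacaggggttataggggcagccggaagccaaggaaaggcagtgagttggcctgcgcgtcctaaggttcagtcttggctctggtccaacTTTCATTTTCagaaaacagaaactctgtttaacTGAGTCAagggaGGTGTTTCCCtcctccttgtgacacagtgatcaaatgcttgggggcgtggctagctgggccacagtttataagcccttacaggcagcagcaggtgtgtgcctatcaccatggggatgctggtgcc
Ifit2, chr19:34550444-34550743, plus strand: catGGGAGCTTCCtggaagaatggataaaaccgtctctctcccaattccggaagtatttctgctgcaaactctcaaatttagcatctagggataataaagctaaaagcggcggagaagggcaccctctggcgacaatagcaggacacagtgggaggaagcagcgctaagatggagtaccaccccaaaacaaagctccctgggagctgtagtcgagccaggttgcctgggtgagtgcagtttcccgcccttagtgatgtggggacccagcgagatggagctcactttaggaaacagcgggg
Isg15, chr4:156200769-156201068, minus strand: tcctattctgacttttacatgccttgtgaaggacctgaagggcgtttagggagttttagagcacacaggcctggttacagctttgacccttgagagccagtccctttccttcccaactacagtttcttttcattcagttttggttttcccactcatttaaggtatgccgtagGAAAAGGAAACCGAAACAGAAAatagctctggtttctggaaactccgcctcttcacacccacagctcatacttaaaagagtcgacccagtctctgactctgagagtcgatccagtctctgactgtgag
Il6, chr5:30012864-30013163, plus strand: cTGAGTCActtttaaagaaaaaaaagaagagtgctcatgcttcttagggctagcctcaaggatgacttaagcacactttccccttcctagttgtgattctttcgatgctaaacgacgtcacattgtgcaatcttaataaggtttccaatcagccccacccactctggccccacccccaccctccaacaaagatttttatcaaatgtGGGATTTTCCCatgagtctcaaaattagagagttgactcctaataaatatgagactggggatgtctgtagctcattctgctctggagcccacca

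The promoter of Cxcl10 held all 3 motifs: ISRE at bases -213 to -204 from the start, NF-kB at -159 to -150 and -103 to -94, and AP-1 at -74 to -68. Ifit1 held ISRE at -104 to -95 and at -85 to -76 and neither of the other motifs. In the Rsad2 promoter, ISRE lay at -120 to -111, AP-1 at -87 to -81 and NF-kB at -75 to -66. The Isg15 window held 3 ISRE matches that overlap each other between -78 and -57. Il6 held AP-1 at -249 to -243 and NF-kB at -44 to -35, which overlaps a match on the other strand at -43 to -34. Ifit2 held 1 NF-kB match at -247 to -238, and a further window annotated for this gene held no match.

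**Figure D1:**
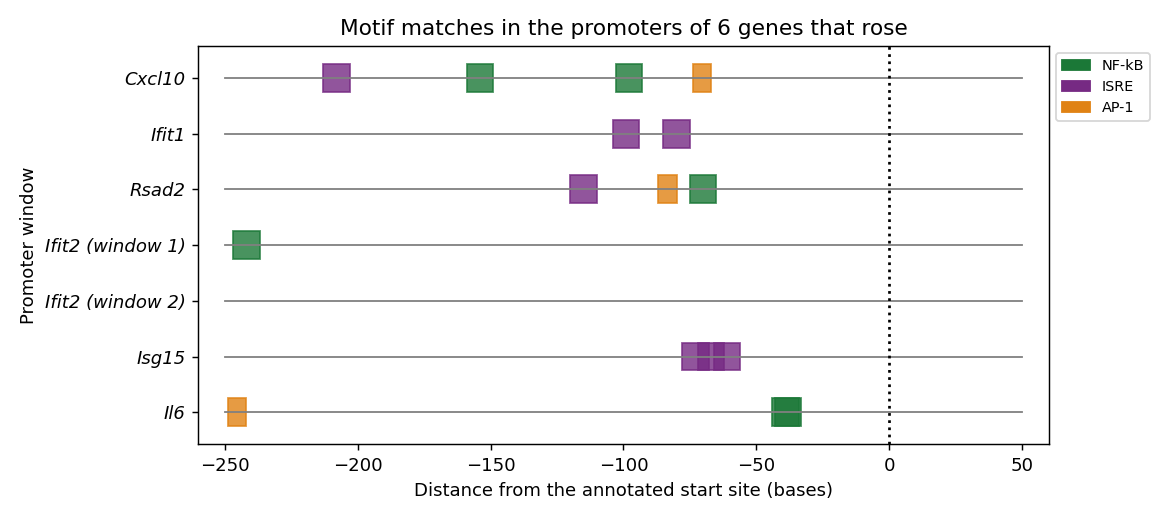
Positions of NF-kB, ISRE and AP-1 letter matches in the promoter windows of Cxcl10, Ifit1, Rsad2, Ifit2, Isg15 and Il6. The x axis gives the distance in bases from the annotated start, 250 before to 50 after, and each coloured block is 1 match. Of the 6 genes, 4 hold ISRE, 4 hold NF-kB and 3 hold AP-1, and the matches of Isg15 overlap each other.

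The ISRE letters were found in 3.99% of the 27025 genes with a promoter in the RefSeq table and in 3.94% of the 9080 of them that were tested. Among tested genes that rose the share was 10.2% of 649 with all arrays and 8.53% of 1160 without LPS replicate 3. Among tested genes that fell it was 2.7% of 408 with all arrays and 1.94% of 929 without that replicate. The GTPase list described below stood highest, with ISRE letters in 8 of 9 promoters. The NF-kB letters were found in 22.9% of all promoters, in 29.4% of tested genes, in 37.1% of those that rose with all arrays and in 35.3% of those that rose without replicate 3. They were found in 30.6% of tested genes that fell with all arrays and in 30.1% of those that fell without replicate 3. In the GTPase list they were found in 2 of 9 promoters, and among antiviral effectors in 7 of 31, where ISRE was found in 14. Among genes of the NF-kB pathway itself, 11 of 16 promoters (68.8%) held the NF-kB letters and 0 held ISRE. The AP-1 letters were found in 6.94% of tested genes, and with all arrays in 10.3% of rises and 9.31% of falls. Without replicate 3 they were found in 8.62% of rises and 7.86% of falls. A match to these letters is a description of the sequence and does not show that a factor binds there.

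Before the response itself, the arrays need a description, because replicate 3 of the LPS group stood apart from the other 4. Its profile correlated most with an unstimulated array, replicate 1 (r = 0.95 across genes), and with the other LPS arrays at 0.774 to 0.821. The slope of its change on the mean change of the other LPS arrays was -0.0502, against 1.03, 0.981, 0.771 and 0.761 for replicates 1, 2, 4 and 5. Of the 2597 genes called without it, replicate 3 lay within the range of the unstimulated arrays for 1340 (51.6%), beyond that range in the direction of the call for 461 (17.8%) and beyond it in the opposite direction for 796 (30.7%). It fell within the range of the other 4 LPS arrays for 206 (7.93%). The array labelled LPS 6 h replicate 3 therefore goes against its label for most called genes, and the results below are given with and without it.

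The remaining arrays fell into pairs. LPS replicates 1 and 2 correlated at 0.992 and replicates 4 and 5 at 0.979, against 0.846 to 0.92 across these pairs, and unstimulated replicates 1 to 3 (0.973 to 0.995 with each other) and replicates 4 and 5 (0.97) likewise correlated less across the 2 sets, at 0.806 to 0.945. Slides split the groups unevenly: LPS replicates 1 and 2 shared slide 7 with unstimulated replicates 4 and 5, unstimulated replicates 1 to 3 were on slide 6, and LPS replicates 3, 4 and 5 were on slides 9, 8 and 1. Slide 9, called the later slide below, was scanned on another day than all other slides. Of the compared arrays it held only LPS replicate 3. The part of the scan day in the profile of that array was not tested. Median Cy5 signal was 101 to 151 on the compared arrays and 51.1% to 66.1% of probes were well above background, and no probe was saturated. Both were highest on unstimulated replicate 5, and the next highest share of probes was 55.5%. The number of arrays limits the precision.

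The labelled cell type was checked against its markers. Of 14 dendritic cell markers 11 passed the filter on dim probes, Itgax, Zbtb46, H2-Ab1, Cd74 and Irf4 among them, and the mean log2 ratio over the 11 was 2.42 to 3.22 on LPS arrays and 2.45 to 2.82 on unstimulated arrays. Flt3, Cd209a and Kmo were not well above background. Macrophage markers separated the replicates rather than the groups: their median difference from the unstimulated mean was 0.63, 0.65, 0.04, -0.7 and -0.89 on LPS replicates 1 to 5, against 0.38, 0.74, 0.61, -0.86 and -0.88 on unstimulated replicates 1 to 5. Neutrophil markers had medians of -0.01, -0.12, 0.88, 0.67 and 0.8 on the LPS arrays, against 0.11, -0.73, -0.21, 0.79 and 0.17 on the unstimulated arrays. Of the 10 macrophage markers tested (of 12), Fcgr1 rose and 1 other fell with all arrays, and without replicate 3 Cd14 rose as well. Of the 8 neutrophil markers tested (of 10), 0 were called with all arrays and Cxcr2 fell without replicate 3.

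For plasmacytoid dendritic cell markers, the mean log2 ratio over the 6 tested of 7 was 0.21 to 1.08 on LPS arrays. On unstimulated arrays it was 0.01 to 0.16. Their median difference from the unstimulated mean was 0.44, 0.52, -0.04, 0.17 and 0.17 on LPS replicates 1 to 5. On unstimulated replicates 1 to 5 it was -0.05, -0.07, -0.08, -0.12 and 0, so LPS replicate 3 lay within that range. Bst2, also an interferon-stimulated gene, rose with all arrays, and Tcf4 and Ccr9 rose as well without replicate 3, while the defining gene Siglech was not well above background on all arrays of any group. Of the 4 T and NK cell markers tested (of 9), the kinase gene Lck rose, and their mean was -0.98 to 0.08 on LPS arrays and -0.87 to -0.46 on unstimulated arrays. The part of such cells in the results was not tested. With all arrays, 0 of the tested markers of B cells, mast cells and basophils, erythroid cells and stroma were called. The defining genes Cd3d and Ncr1 of T and NK cells, Ms4a1 and Pax5 of B cells, Cpa3 and Mcpt8 of mast cells and basophils, and Klf1 of erythroid cells were likewise not well above background on all arrays of any group. In RNA from a whole population, fewer cells of a type and less RNA per cell cannot be told apart.

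Of 11263 genes tested, 1310 (11.6%) differed between LPS 6 h and unstimulated control cells at an adjusted p under 0.05, 804 higher (7.14%) and 506 lower (4.49%), and 519 of them by 2-fold or more. Without LPS replicate 3 the count was 2597 (23.1%), 1440 higher (12.8%) and 1157 lower (10.3%), with 903 of them at 2-fold or more. The calls were nearly nested: 1299 genes were called in both comparisons, 11 with all arrays only and 1298 without replicate 3 only, and 0 were called in opposite directions. Shares of rising and falling genes in the lists below are to be set against these shares of all genes. With all arrays those of the cell cycle, G protein regulator and lipid lists lay near them. Without replicate 3, those of the cell cycle and glycolysis lists did. The lists were chosen with earlier results of these data known. A share above that of all genes may therefore be in part built in and is no test. The median over all tested genes was 0.01 in both comparisons. The test was limma's moderated test across all genes with Benjamini-Hochberg adjustment, with 1 spread per gene shared by all 6 groups of the series.

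The count depends on how the spread is estimated. With the 10 compared arrays alone it was 66, and with 9 of them, without replicate 3, it was 2215. Without replicate 3, deviations from the group means correlated between same-numbered LPS and unstimulated arrays, but LPS number 1 correlated more with unstimulated number 2. When the number was added to the model as a block, the count without replicate 3 became 4336, 2282 higher and 2054 lower. With all groups in the fit and no block, the count was 741 without LPS replicate 1 and 745 without LPS replicate 2. The split between rises and falls moved with the scaling. The scanner software's ratio gave 696 higher and 737 lower with all arrays and 1182 and 1566 without replicate 3, centring on each array's median gave 495 and 165 with all arrays and 677 and 1926 without replicate 3, and the Cy5 channel alone gave 687 and 587 with all arrays and 1202 and 1304 without replicate 3. Centring moved the median of all genes to -0.22 without replicate 3. Within slide 7, the only slide that holds both groups, the difference had the sign of the call for 1286 of the 1310 genes (98.2%) and for 2509 of the 2597 (96.6%). The arrays of slide 7 are among those that gave the calls, so this agreement is in part built in and is no independent check.

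**Figure D2:**
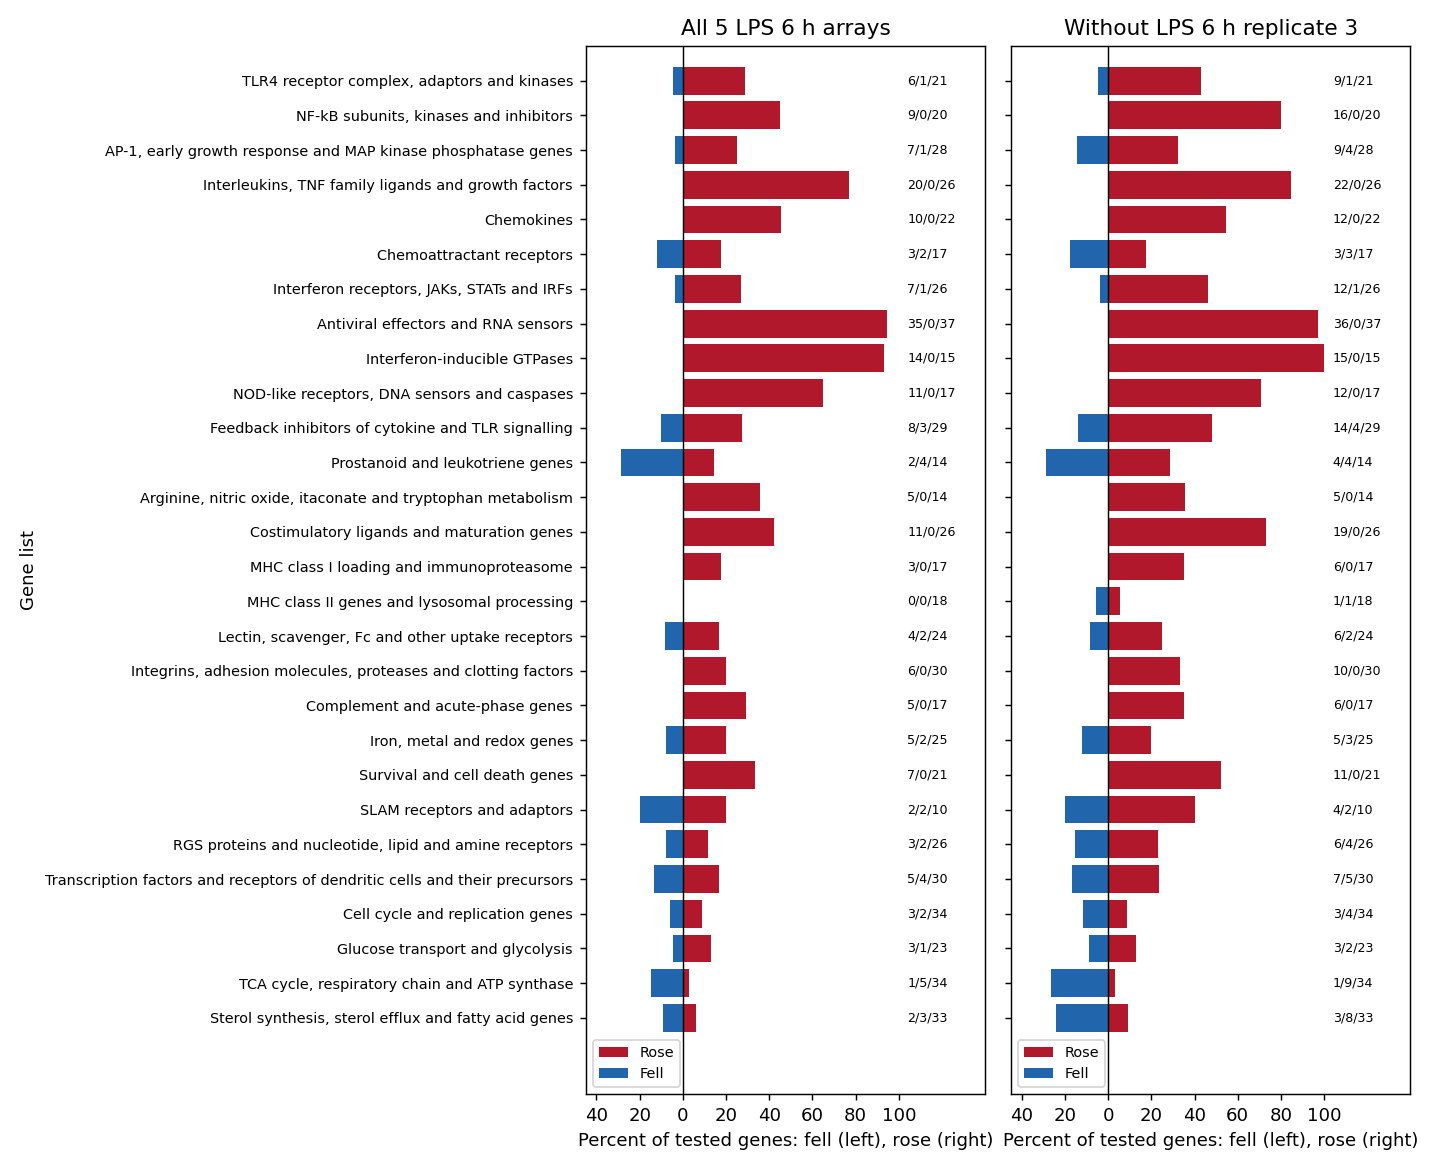
Percent of the tested genes of each of 28 gene lists that rose (right) or fell (left) after 6 h of LPS, with all 5 LPS arrays in the left panel and without LPS replicate 3 in the right panel. The numbers beside the bars give genes that rose, genes that fell and genes tested. Antiviral effectors and interferon-inducible GTPases have the longest bars in both panels, and the MHC class II list has 0 genes called with all arrays.

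The genes that rose most encode secreted and antiviral proteins. Each list of 5 values below follows replicates 1 to 5. Cxcl10 had log2 ratios of 8.27, 8.58, -1.45, 5.42 and 5.44 in LPS cells, against -2.23, -2.44, -2.64, -1.74 and -1.92 in unstimulated cells. LPS replicates 1, 2, 4 and 5 lay far above every unstimulated array, while replicate 3 lay just above the highest of them, and 2 of the 5 unstimulated arrays were well above background for this probe. The difference was 7.45 (SE 1.21, adjusted p = 0.000463) with all arrays and 9.13 (SE 0.86, adjusted p = 2.18e-08) without replicate 3. Ifit1, whose product binds viral RNA that lacks a host cap, had 6.07, 6.21, -1.62, 4.23 and 4.44 in LPS cells, against -1.49, -1.44, -1.55, -1.54 and -1.49 in unstimulated cells. Its unstimulated values were tightly grouped, and LPS replicate 3 fell below all of them. The rise was 5.37 (SE 1, adjusted p = 0.00129) with all arrays and 6.74 (SE 0.72, adjusted p = 1.5e-07) without replicate 3.

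For Il6, replicate 3 lay on the far side of the unstimulated arrays. Its log2 ratios were 7.59, 7.57, -0.65, 7.19 and 7.88 in LPS cells, against 1.71, 1.84, 1.77, 1.49 and 1.94 in unstimulated cells, so LPS replicate 3 was lower than every other array of either group. The difference was 4.17 (SE 1.04, adjusted p = 0.00889) with all arrays and 5.81 (SE 0.57, adjusted p = 4.15e-08) without replicate 3. The remaining genes of the 12 largest rises were Rsad2 (viperin) at 5.07 (6.43 without replicate 3), Ifit2 at 4.82 (6.12 without replicate 3), the ubiquitin-like modifier Isg15 at 4.32 (5.4 without replicate 3), the immunity-related GTPase Iigp1 at 4.26 (5.12 without replicate 3), the nucleotide kinase Cmpk2 at 4.13 (5.1 without replicate 3), the neutrophil chemokine Cxcl3 at 4.08 (4.69 without replicate 3), the cytokine Il1b at 4.03 (4.81 without replicate 3), the DNA sensor family member Ifi205 at 3.95 (5.05 without replicate 3) and the soluble pattern recognition protein Ptx3 at 3.94 (4.7 without replicate 3). Within slide 7, whose arrays also entered the ranking, the 12 differences were 3.01 to 10.26, all in the same direction.

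**Figure D3:**
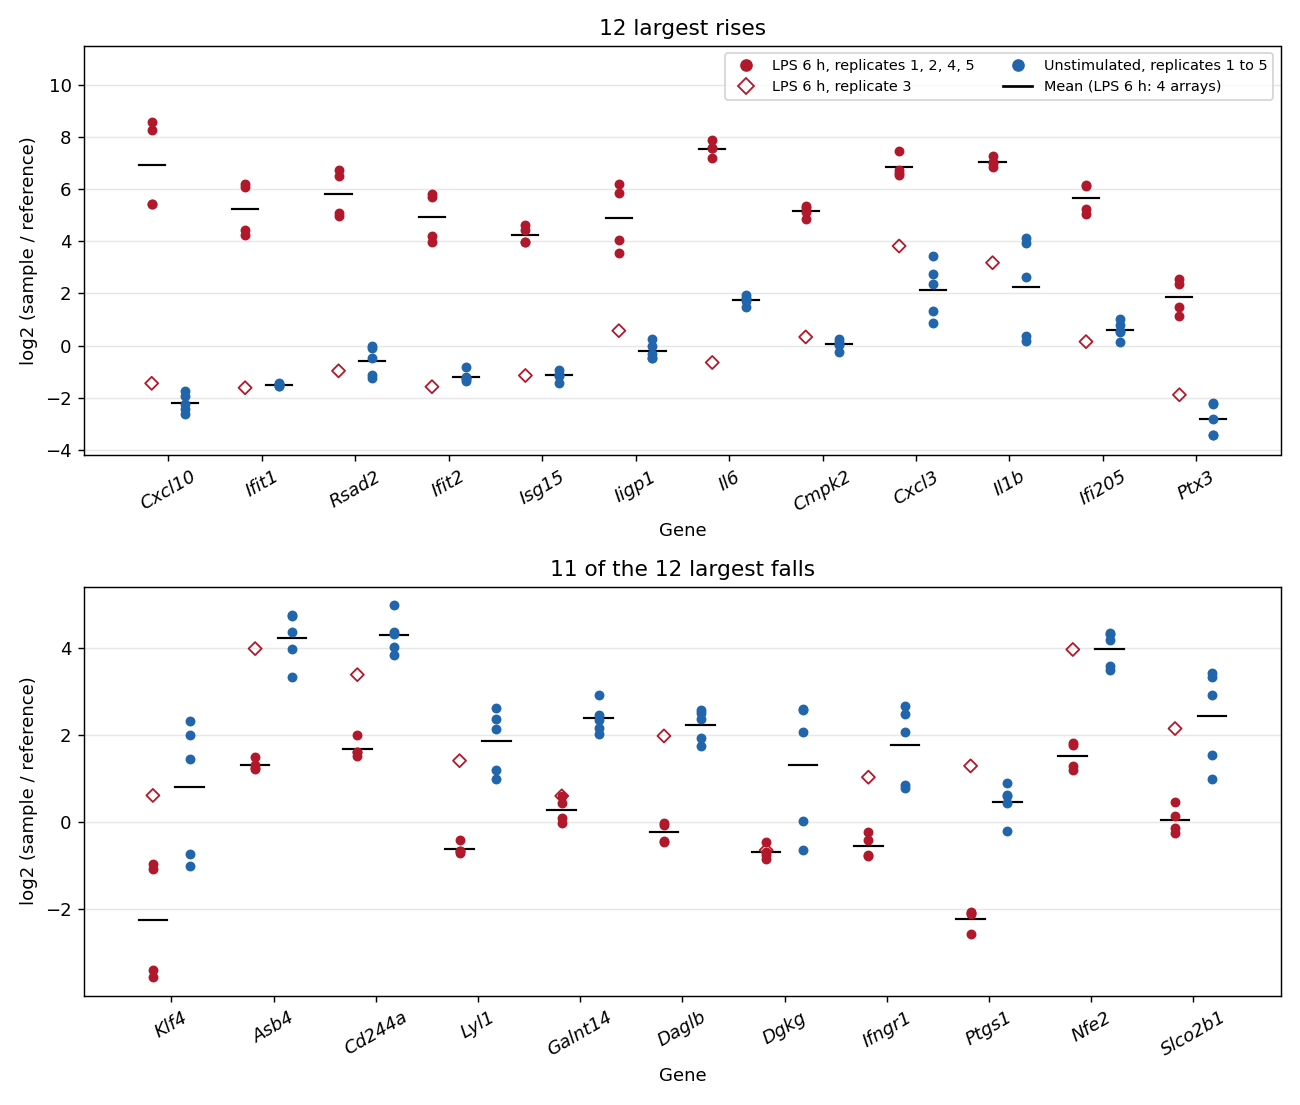
Log2 ratio of sample over reference for the 12 largest rises (upper panel) and 11 of the 12 largest falls (lower panel), with LPS 6 h arrays left of unstimulated arrays for each gene. Filled points are arrays, the open diamond is LPS replicate 3 and the bar is the mean, for LPS over the 4 arrays other than replicate 3. The open diamond lies near the unstimulated points for most genes, and for Galnt14 and Dgkg it lies among the other LPS points.

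The largest falls held regulators of blood cell identity and receptors. Asb4, which encodes a substrate adaptor of a ubiquitin ligase, had 1.3, 1.21, 3.99, 1.49 and 1.24 in LPS cells, against 4.37, 4.75, 4.76, 3.99 and 3.34 in unstimulated cells. LPS replicates 1, 2, 4 and 5 lay below every unstimulated array and replicate 3 lay among them. The difference was -2.4 (SE 0.39, adjusted p = 0.000468) with all arrays and -2.93 (SE 0.28, adjusted p = 2.68e-08) without replicate 3. Lyl1 and Nfe2, transcription factors of early blood cells, fell by 2.08 and 1.97 on the log2 scale with all arrays and by 2.48 and 2.46 without replicate 3. The lipase gene Daglb, which makes the endocannabinoid 2-arachidonoylglycerol, had a difference of -2.02 (-2.47 without replicate 3). Cd244a, a receptor of the SLAM family, had -2.29 (-2.63 without replicate 3), Ifngr1, the ligand-binding chain of the interferon gamma receptor, -2 (-2.31 without replicate 3), and Ptgs1, the constitutive cyclooxygenase, -1.98 (-2.69 without replicate 3). Galnt14, which starts O-linked glycosylation, had 0.1, -0.03, 0.6, 0.59 and 0.43 in LPS cells, against 2.35, 2.16, 2.46, 2.93 and 2.03 in unstimulated cells, and here LPS replicate 3 was with the other LPS arrays and the groups did not overlap. It was well above background on 3 of the 5 LPS arrays. The transporter Slco2b1 was not well above background on the 4 LPS arrays other than replicate 3, which makes its fall at least 5.24-fold there.

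For Klf4 and Dgkg the groups overlapped even without replicate 3. Klf4, a transcription factor of monocytes, had -1.09, -0.96, 0.61, -3.57 and -3.41 in LPS cells, against 1.46, 2.33, 2, -0.73 and -1.02 in unstimulated cells. Its replicates 4 and 5 were lower than replicates 1 and 2 within each group, as the macrophage markers were. The difference was -2.49 (SE 0.73, adjusted p = 0.0252) with all arrays and -3.07 (SE 0.72, adjusted p = 0.00227) without replicate 3. Within slide 7, which sets LPS replicates 1 and 2 against unstimulated replicates 4 and 5, the differences were -0.15 for Klf4 and -0.3 for Dgkg, which encodes a diacylglycerol kinase. Between same-numbered arrays, Klf4 differed by -2.92 in replicates 1 and 2 and by -2.62 in replicates 4 and 5 and Dgkg by -2.95 and -0.46. Dgkg was well above background on 3 of the 5 LPS arrays and on all 5 unstimulated arrays. The part of the uneven replicates and slides in these falls was not tested.

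The receptor complex moved in both directions. Of 21 tested genes for the TLR4 receptor, its adaptors and kinases, 6 rose and 1 fell with all arrays (median 0.44), and 9 rose and 1 fell without replicate 3 (median 0.54). The 1 that fell was Tlr4 itself, with log2 ratios of 0.12, 0.05, 1.56, 0.62 and 0.81 in LPS cells, against 1.62, 1.81, 1.81, 1.53 and 1.43 in unstimulated cells. LPS replicate 3 was within the unstimulated range and the other 4 LPS arrays were below it. The difference was -1.01 (SE 0.25, adjusted p = 0.00836) with all arrays and -1.24 (SE 0.23, adjusted p = 0.000241) without replicate 3. Its partner Ly96 rose, with 2.54, 2.61, 1.43, 2.49 and 2.74 in LPS cells, against 1.62, 1.74, 1.54, 1.48 and 1.71 in unstimulated cells. Apart from replicate 3, the LPS arrays lay above all unstimulated arrays, and the difference was 0.74 (SE 0.16, adjusted p = 0.00265) with all arrays and 0.98 (SE 0.09, adjusted p = 3.35e-08) without replicate 3. Downstream, the kinase Map3k8, which drives the ERK branch, rose by 2.18 (2.72 without replicate 3), the kinase Tbk1, which phosphorylates IRF3, by 0.78 (1 without replicate 3), and the adaptor Myd88 by 0.88 (1.03 without replicate 3). Irak3, a pseudokinase that restrains MyD88 signalling, rose by 1.15 (1.23 without replicate 3). Cd14 passed the test without replicate 3, at 1.98 (SE 0.65, adjusted p = 0.0264), and had 1.66 (SE 0.62, adjusted p = 0.0861) with all arrays.

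Of 20 tested genes for NF-kB subunits, their kinases and inhibitors, 9 rose and 0 fell with all arrays (median 0.84), and 16 rose and 0 fell without replicate 3 (median 1.07). Nfkbiz, a nuclear IkB protein that NF-kB needs at genes such as Il6, had 1.08, 1.15, -3.42, -0.25 and -0.36 in LPS cells, against -3.32, -3.35, -3.14, -3 and -2.32 in unstimulated cells. LPS replicates 1 and 2 were higher than replicates 4 and 5, and replicate 3 was below every unstimulated array. The difference was 2.67 (SE 0.54, adjusted p = 0.00195) with all arrays and 3.44 (SE 0.37, adjusted p = 1.44e-07) without replicate 3. Tnfaip3, the deubiquitinase A20 that ends NF-kB signalling, rose by 1.93 (2.49 without replicate 3), Tnfaip2 by 1.18 (1.36 without replicate 3) and the inhibitor Nfkbie by 1.15 (1.33 without replicate 3). Of the subunits, Rel rose by 1.1 (1.34 without replicate 3), and Nfkb1 and Nfkb2 passed the test without replicate 3 only, with 0.86 (0.99 without replicate 3) and 0.86 (1.18 without replicate 3), as did Relb, with 0.57 (0.84 without replicate 3). Rela, the subunit p65, passed in neither comparison, with 0.32 (0.46 without replicate 3). Nfkbia, the IkB alpha that holds NF-kB in the cytoplasm, was likewise called without replicate 3, at 1.64 (SE 0.37, adjusted p = 0.00149), and had 1.21 (SE 0.41, adjusted p = 0.0554) with all arrays.

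The AP-1, early growth response and MAP kinase phosphatase genes were mixed. Of 28, 7 rose and 1 fell with all arrays, and 9 rose and 4 fell without replicate 3, with medians of 0.27 and 0.33. The phosphatases Dusp2 and Dusp14, which switch off MAP kinases, rose by 2.07 (2.64 without replicate 3) and 1.48 (2.03 without replicate 3), whereas Dusp3 had -0.59 (-0.63 without replicate 3). Batf2, a dimer partner of Jun proteins, rose by 1.82 (2.18 without replicate 3) and the stress gene Gadd45b by 1.49 (2.2 without replicate 3). Dusp3 had log2 ratios of 1.06, 1.11, 1.51, 1.6 and 1.5 in LPS cells, against 1.96, 2.03, 2.1, 2.01 and 1.62 in unstimulated cells, so all 5 LPS arrays were below the unstimulated arrays by a small margin.

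Cytokine genes rose broadly. Of 26 tested interleukins, TNF family ligands and growth factors, 20 rose and 0 fell with all arrays (median 1.66), and 22 rose and 0 fell without replicate 3 (median 2.07). Tnf had 4.23, 4.21, 0.72, 3.92 and 4.25 in LPS cells, against 0.08, -0.43, -0.34, 0.83 and 0.49 in unstimulated cells. LPS replicates 1, 2, 4 and 5 were within a narrow band above all unstimulated arrays, and replicate 3 was within the unstimulated range. The difference was 3.34 (SE 0.54, adjusted p = 0.000455) with all arrays and 4.03 (SE 0.42, adjusted p = 9.53e-08) without replicate 3. Il1b had 7.02, 7.05, 3.18, 6.87 and 7.27 in LPS cells, against 2.63, 0.18, 0.35, 3.94 and 4.12 in unstimulated cells. Here the unstimulated arrays themselves were spread, with replicates 4 and 5 highest. Il1a rose by 3.58 (4.18 without replicate 3) and the vasoconstrictor gene Edn1, which was well above background on 3 of the 5 unstimulated arrays, by 3.69 (4.51 without replicate 3).

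Il12a, the p35 subunit of interleukin 12, rose by 1.57 (1.97 without replicate 3), while Il12b had no named probe. Il12a was well above background on 4 of the 5 LPS arrays and on 1 of the 5 unstimulated arrays, so the size of its rise is set against values mostly near background. Il15, which sustains NK and memory T cells, had 4.79, 4.89, 1.01, 4.66 and 5.28 in LPS cells, against 2.07, 2.13, 2.11, 1.72 and 1.98 in unstimulated cells, and replicate 3 was again the lowest of all 10 arrays. Its rise was 2.13 (SE 0.5, adjusted p = 0.00607) with all arrays and 2.9 (SE 0.29, adjusted p = 5.4e-08) without replicate 3. Ifnb1, the interferon beta gene, had 2.98, 2.34, 0.02, 2.48 and 3.06 in LPS cells, against 0.29, -0.09, 0.11, -0.07 and 0.07 in unstimulated cells. It was well above background on 4 of the 5 LPS arrays and on 0 of the 5 unstimulated arrays, so the rise is a bound: at least 3.47-fold with all arrays (adjusted p = 0.011) and at least 4.88-fold without replicate 3 (adjusted p = 0.000246). Such a bound is taken in the Cy5 channel: the mean of the bright group over the lowest signal that was well above background on each array of the dim group, or over the probe's own signal where that was higher. Csf2, the gene of the growth factor GM-CSF, was well above background on 1 of 5 LPS arrays and 1 of 5 unstimulated arrays, and had 0.22 (SE 0.3, adjusted p = 0.727) with all arrays and 0.27 (SE 0.32, adjusted p = 0.607) without replicate 3. Il10 and Csf3 were not well above background on all arrays of either group.

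Of 22 tested chemokine genes, 10 rose and 0 fell with all arrays (median 1.24), and 12 rose and 0 fell without replicate 3 (median 1.70). Among the ligands of CXCR2, Cxcl3 rose by 4.08 (4.69 without replicate 3), Cxcl1 by 3.75 (4.83 without replicate 3) and Cxcl2 by 3.71 (4.62 without replicate 3). Cxcl2 was well above background on 4 of the 5 LPS arrays and on 1 of the 5 unstimulated arrays, so the size of its rise, too, is set against values mostly near background. Cxcl1 had 0.37, 0.11, -4.73, 0.9 and 1.31 in LPS cells, against -4.32, -4.58, -4.29, -4.11 and -3.5 in unstimulated cells, with replicate 3 below every unstimulated array and the other 4 LPS arrays far above them. Ccl3, a chemokine for monocytes and lymphocytes, rose by 2.82 (3.12 without replicate 3).

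Ccl5, a chemokine for T cells and monocytes, was not called although the groups did not overlap without replicate 3. Its log2 ratios were 5.45, 5.71, 1.2, 4.74 and 4.53 in LPS cells, against 3.91, 4.21, 4.27, 3.2 and 2.79 in unstimulated cells. Replicates 4 and 5 were lower than replicates 1 and 2 in both groups. The SD was 1.82 over the LPS arrays, 0.56 over those other than replicate 3, and 0.65 over the unstimulated arrays. The SE of the test comes from 1 spread shared by all 6 groups of the series, not from these arrays alone. The difference was 0.65 (SE 0.8, adjusted p = 0.7) with all arrays and 1.43 (SE 0.73, adjusted p = 0.17) without replicate 3. Also without replicate 3, it was 1.63 when replicate numbers were blocked (adjusted p = 0.0445). With that block 4336 of the 11263 genes passed, and the numbers need not mark true pairs.

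Receptors for these signals split. Of 17 chemoattractant receptors, 3 rose and 2 fell with all arrays, and 3 rose and 3 fell without replicate 3, with medians of -0.04 and 0.12. Ccrl2, which presents chemerin without signalling, rose by 3.09 (3.91 without replicate 3), and the formyl peptide receptors Fpr2 and Fpr1 by 2.18 (2.45 without replicate 3) and 1.68 (1.91 without replicate 3). Cxcr4, the receptor that holds cells in marrow, fell: it had -0.25, -0.23, 0.15, 0.44 and 0.87 in LPS cells, against 1.88, 1.86, 2.03, 1.91 and 2.54 in unstimulated cells. Every LPS array, replicate 3 included, was below every unstimulated array. The difference was -1.85 (SE 0.33, adjusted p = 0.000829) with all arrays and -1.84 (SE 0.35, adjusted p = 0.000304) without replicate 3. The leukotriene B4 receptor Ltb4r1 had -0.75 (-0.88 without replicate 3). Ccr7, which guides mature dendritic cells to lymph nodes, had 5, 5.11, 3.55, 4.72 and 5.26 in LPS cells, against 4.77, 4.78, 4.83, 4.66 and 4.84 in unstimulated cells. Its groups overlapped with and without replicate 3. The difference was -0.05 (SE 0.51, adjusted p = 0.974) with all arrays and 0.25 (SE 0.53, adjusted p = 0.793) without replicate 3. No change was detectable by limma's test, whose spread is shared by all groups.

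Interferon-stimulated effectors moved almost as a block. Of 37 tested antiviral effectors and RNA sensors, 35 rose and 0 fell with all arrays (median 1.91), and 36 rose and 0 fell without replicate 3 (median 2.35). Isg15 had 4.43, 4.61, -1.15, 3.99 and 3.98 in LPS cells, against -1.15, -1.12, -1.42, -1.1 and -0.93 in unstimulated cells. The 4 LPS arrays other than replicate 3 were close together and replicate 3 was within the unstimulated range. Cmpk2 had 5.29, 5.34, 0.33, 4.87 and 5.12 in LPS cells, against 0.04, 0.27, 0.15, 0.06 and -0.24 in unstimulated cells, and here replicate 3 was slightly above the highest unstimulated array. Zbp1, a sensor of Z-form nucleic acid, rose by 1.83 (2.22 without replicate 3). The differences of Isg15 and Cmpk2 were 4.32 (SE 0.81, adjusted p = 0.00138) and 4.13 (SE 0.75, adjusted p = 0.00107) with all arrays.

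Interferon-inducible GTPases, which attack the vacuoles of intracellular microbes, had the highest median of the 28 lists: 2.54 with all arrays and 3.15 without replicate 3. Of 15 tested, 14 rose with all arrays and 15 without replicate 3, and 0 fell. Gbp5 had 6.73, 6.82, 1.17, 5.71 and 6.35 in LPS cells, against 1.91, 1.74, 1.71, 2.08 and 1.65 in unstimulated cells. Its 4 LPS arrays other than replicate 3 were well separated from the unstimulated arrays, and replicate 3 was below them. The difference was 3.54 (SE 0.68, adjusted p = 0.00141) with all arrays and 4.58 (SE 0.39, adjusted p = 6.37e-09) without replicate 3. Iigp1 had 5.85, 6.2, 0.57, 3.54 and 4.04 in LPS cells, against -0.47, -0.32, -0.49, -0.03 and 0.24 in unstimulated cells, and here all 5 LPS arrays were above the unstimulated arrays. Tgtp1 rose by 3.46 (4.52 without replicate 3), Ifi47 by 2.7 (3.42 without replicate 3) and Gbp2 by 1.13 (1.55 without replicate 3). The median over the 15 genes was 3.58 and 3.72 above the unstimulated mean on LPS replicates 1 and 2, 0.09 on replicate 3, and 2.35 and 2.08 on replicates 4 and 5.

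**Figure D4:**
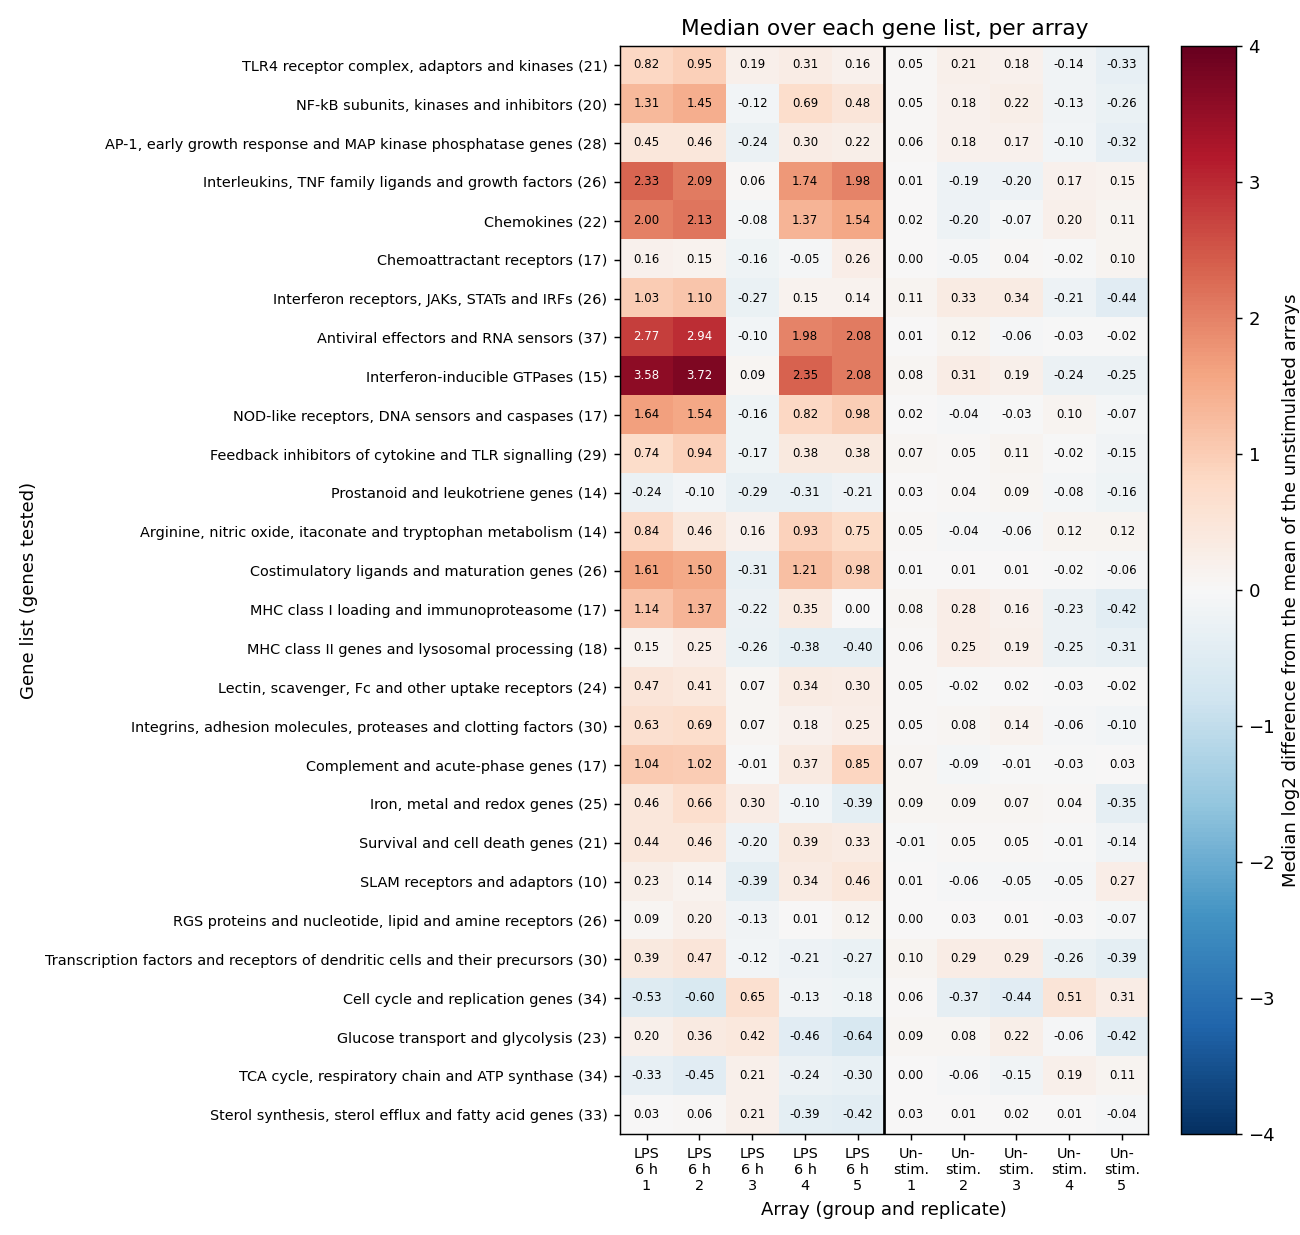
Median log2 difference from the mean of the 5 unstimulated arrays, over the tested genes of each of 28 lists (rows), on each LPS 6 h array (left 5 columns) and each unstimulated array (right 5 columns), with red above and blue below 0. LPS replicates 1 and 2 show 3.58 and 3.72 for the GTPases and replicates 4 and 5 show 2.35 and 2.08, while LPS replicate 3 shows 0.09.

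Among the interferon receptors, JAKs, STATs and IRFs that read these signals, 7 of 26 rose and 1 fell with all arrays (median 0.36), and 12 rose and 1 fell without replicate 3 (median 0.57). Irf7, which amplifies type I interferon production, had 3.43, 3.52, -1.79, 2.37 and 2.3 in LPS cells, against -1.54, -1.57, -1.46, -1.5 and -1.15 in unstimulated cells. The rise was 3.41 (SE 0.8, adjusted p = 0.00583) with all arrays and 4.35 (SE 0.67, adjusted p = 2.38e-05) without replicate 3, and replicate 3 was the lowest of all 10 arrays. Usp18, which removes ISG15 and damps the interferon receptor, rose by 2.75 (3.53 without replicate 3), Stat2 by 2.01 (2.58 without replicate 3) and Irf1 by 1.57 (2.1 without replicate 3). Ifngr1 had -0.42, -0.23, 1.03, -0.79 and -0.75 in LPS cells, against 2.06, 2.48, 2.67, 0.85 and 0.78 in unstimulated cells. Apart from replicate 3, the LPS arrays were below all unstimulated arrays, which themselves were split between replicates 1 to 3 and replicates 4 and 5. The difference was -2 (SE 0.35, adjusted p = 0.000752) with all arrays and -2.31 (SE 0.32, adjusted p = 6.75e-06) without replicate 3.

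Irf4, the factor deleted in the KO cells of the series, was present in the control cells and rose. Its log2 ratios were 2.44, 2.55, 2.13, 2.42 and 1.99 in LPS cells, against 1.51, 1.16, 1.28, 1.79 and 1.32 in unstimulated cells. All 5 LPS arrays were above every unstimulated array, and replicate 3 was with the other LPS arrays. The difference was 0.9 (SE 0.27, adjusted p = 0.0272) with all arrays and 0.94 (SE 0.29, adjusted p = 0.0177) without replicate 3.

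Of 17 tested NOD-like receptors, DNA sensors and caspases, 11 rose and 0 fell with all arrays (median 1.09), and 12 rose and 0 fell without replicate 3 (median 1.29). Ifi205, Ifi209 and Ifi204, members of a family that includes DNA sensors, rose by 3.95 (5.05 without replicate 3), 3.71 (4.7 without replicate 3) and 3.39 (4.41 without replicate 3). Casp4, the mouse caspase-11 that binds LPS inside the cell, had 2.46, 2.52, -1.12, 2.31 and 2.58 in LPS cells, against -1.03, -1.29, -1.23, -0.7 and -0.3 in unstimulated cells. LPS replicates 1, 2, 4 and 5 were near each other and above all unstimulated arrays, and the difference was 2.66 (SE 0.54, adjusted p = 0.00214) with all arrays and 3.38 (SE 0.4, adjusted p = 8.1e-07) without replicate 3. Nlrp3, the sensor of the best known inflammasome, had 0.79, 0.55, 0.37, 0.37 and 0.48 in LPS cells, against 0.31, 0.07, 0.35, 0.29 and -0.03 in unstimulated cells. Its groups did not overlap, as those of 4.48% of all tested genes did not with all arrays (21.3% without replicate 3), but the gap was small. The difference was 0.31 (SE 0.15, adjusted p = 0.191) with all arrays and 0.35 (SE 0.16, adjusted p = 0.121) without replicate 3, where it was 0.39 when replicate numbers were blocked (adjusted p = 0.0134). That block, under which 4336 of the 11263 genes passed, rests on numbers that need not mark true pairs.

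Feedback inhibitors changed in both directions. Of 29 tested, 8 rose and 3 fell with all arrays, and 14 rose and 4 fell without replicate 3, with medians of 0.48 and 0.61. Socs3, which blocks cytokine receptors of the gp130 family, had 2.04, 2.29, -0.22, 0.52 and 0.19 in LPS cells, against -1.4, -1.75, -1.74, -1.03 and -1.41 in unstimulated cells, with no overlap between the groups. The difference was 2.43 (SE 0.48, adjusted p = 0.00182) with all arrays and 2.72 (SE 0.49, adjusted p = 0.000165) without replicate 3. Zc3h12a, an RNase that degrades cytokine mRNAs, rose by 2.37 (2.9 without replicate 3) and Il1rn, the interleukin 1 receptor antagonist, by 1.81 (2.04 without replicate 3). In contrast Sigirr, an inhibitory receptor of the TLR and interleukin 1 family, had -0.06, -0.09, 1.03, 0.46 and 0.49 in LPS cells, against 1.94, 2.18, 2.11, 1.32 and 1.31 in unstimulated cells. Each of the 5 LPS arrays was below every unstimulated array, and the difference was -1.4 (SE 0.32, adjusted p = 0.00494) with all arrays and -1.57 (SE 0.34, adjusted p = 0.000972) without replicate 3. Cd300a, another inhibitory receptor, had -1.35 (-1.53 without replicate 3).

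Within the prostanoid and leukotriene genes the cyclooxygenases moved oppositely. Of 14 tested, 2 rose and 4 fell with all arrays (median -0.33), and 4 rose and 4 fell without replicate 3 (median -0.25). Ptgs2, the inducible cyclooxygenase, had 2.16, 2.3, -2.95, -0.37 and -0.22 in LPS cells, against -2.66, -2.72, -2.67, -2.8 and -2.4 in unstimulated cells. It was well above background on 4 of 5 LPS arrays and 0 of 5 unstimulated arrays, so the size of its rise is uncertain. The log2 ratios differed by 2.83 (SE 0.69, adjusted p = 0.00727) with all arrays and by 3.62 (SE 0.58, adjusted p = 4.31e-05) without replicate 3. As a bound in the Cy5 channel, the rise without replicate 3 was at least 12.3-fold. Ptges, the inducible synthase that makes prostaglandin E2, rose by 2.35 (3 without replicate 3). Ptgs1 had -2.1, -2.08, 1.29, -2.13 and -2.59 in LPS cells, against 0.59, 0.63, 0.89, 0.43 and -0.22 in unstimulated cells. Replicate 3 was above every unstimulated array here and the other 4 LPS arrays were below them, and the difference was -1.98 (SE 0.53, adjusted p = 0.0141) with all arrays and -2.69 (SE 0.4, adjusted p = 1.35e-05) without replicate 3. In the leukotriene branch, Lta4h, which makes leukotriene B4, had -0.82 (-1.23 without replicate 3) and Alox5ap, which presents arachidonic acid to 5-lipoxygenase, -0.75 (-0.86 without replicate 3). Alox5ap had a difference of 0.05 within slide 7. The thromboxane synthase gene Tbxas1 had -0.44 (-0.45 without replicate 3), and with the ratio computed by the scanner software its sign turned, to 0.14 with all arrays and 0.3 without replicate 3.

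**Figure D5:**
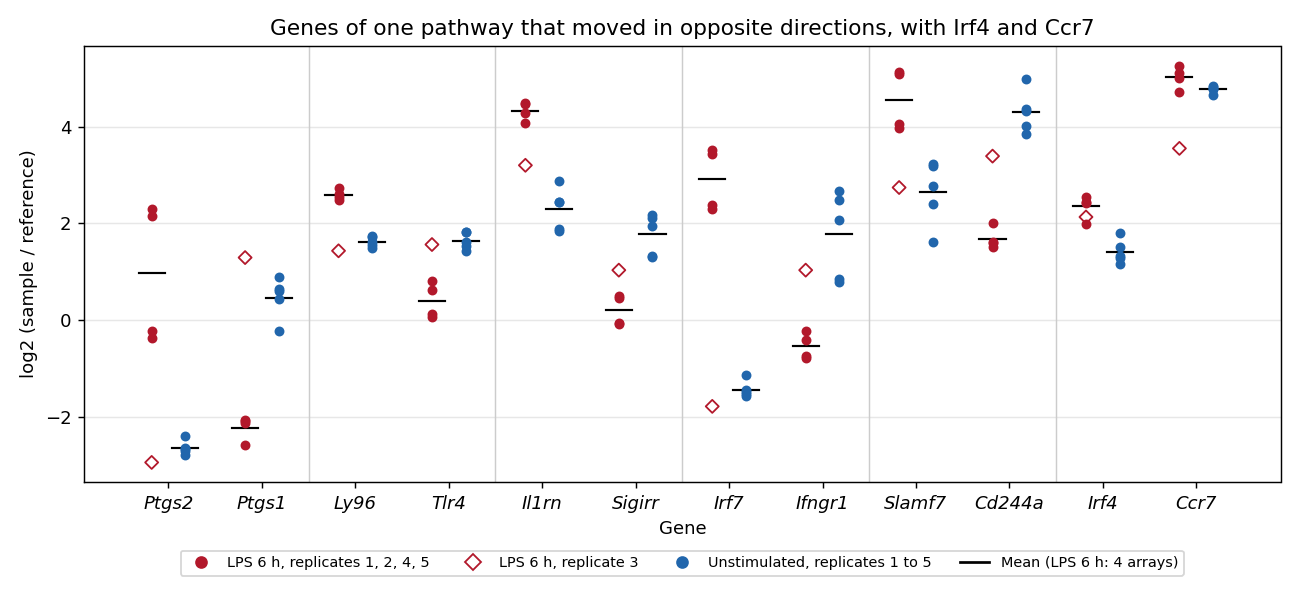
Log2 ratio of sample over reference for pairs of genes of 1 pathway that moved oppositely (Ptgs2 and Ptgs1, Ly96 and Tlr4, Il1rn and Sigirr, Irf7 and Ifngr1, Slamf7 and Cd244a), and for Irf4 and Ccr7, with LPS 6 h arrays left of unstimulated arrays. Filled points are arrays, the open diamond is LPS replicate 3 and the bar is the mean, for LPS over the 4 arrays other than replicate 3. LPS and unstimulated points of Irf4 do not overlap and those of Ccr7 do.

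Genes listed for arginine, nitric oxide and tryptophan metabolism rose in part: 5 of 14 tested with all arrays (median 0.82) and 5 without replicate 3 (median 0.84), with 0 falls. The counted rises include the histidine enzyme gene Hdc and the cystine transporter gene Slc7a11. Hdc, which makes histamine from histidine, had 4.63, 4.59, 0.74, 4.58 and 5.04 in LPS cells, against -0.02, 0, 0.15, 0.26 and 0.1 in unstimulated cells. Every LPS array was above the unstimulated arrays, replicate 3 by the least, and the difference was 3.82 (SE 0.59, adjusted p = 0.000368) with all arrays and 4.61 (SE 0.43, adjusted p = 2.18e-08) without replicate 3. Nos2, the inducible nitric oxide synthase, had 4.64, 4.66, 0.32, 1.31 and 1.23 in LPS cells, against 0.16, 0.07, 0.08, 0.08 and 0.19 in unstimulated cells. LPS replicates 1 and 2 were far above replicates 4 and 5, and the difference was 2.32 (SE 0.75, adjusted p = 0.042) with all arrays and 2.84 (SE 0.74, adjusted p = 0.00598) without replicate 3. Gch1, which supplies the cofactor of nitric oxide synthase, rose by 1.87 (2.21 without replicate 3) and the cystine transporter Slc7a11 by 0.85 (1 without replicate 3). Nos2 was well above background on 4 of 5 LPS arrays and on 1 of 5 unstimulated arrays.

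Costimulatory ligands and maturation genes rose without a fall: 11 of 26 with all arrays (median 0.97) and 19 of 26 without replicate 3 (median 1.31). Cd80, a ligand of CD28, had 3.93, 3.88, 1.34, 4.2 and 4.26 in LPS cells, against 1.22, 0.56, 0.67, 1.92 and 1.28 in unstimulated cells. The 4 LPS arrays other than replicate 3 were above all unstimulated arrays, and the difference was 2.39 (SE 0.46, adjusted p = 0.00141) with all arrays and 2.94 (SE 0.37, adjusted p = 1.85e-06) without replicate 3. Cd86, the other CD28 ligand, had 4.76, 4.75, 1.82, 4.71 and 5.3 in LPS cells, against 2.82, 2.31, 2.52, 3.48 and 4.09 in unstimulated cells. Replicate 3 was the lowest of all 10 arrays, and Cd86 was called without it, at 1.84 (SE 0.35, adjusted p = 0.000305), while it had 1.22 (SE 0.47, adjusted p = 0.0898) with all arrays. Cd200, an inhibitory ligand of myeloid cells, behaved likewise, with 1.17 (SE 0.44, adjusted p = 0.0825) with all arrays and 1.92 (SE 0.16, adjusted p = 3.86e-09) without replicate 3.

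The transporter Slco3a1 rose by 3.17 (3.88 without replicate 3), the actin regulator Marcksl1 by 1.71 (2.44 without replicate 3), the adhesion ligand Icam1 by 0.82 (1.09 without replicate 3) and Icosl, the ligand of ICOS, by 0.96 (1.15 without replicate 3). Cd83, a marker of mature dendritic cells, had 6.3, 6.13, 5.05, 6.07 and 6.54 in LPS cells, against 6, 6.05, 6.05, 6.04 and 6.13 in unstimulated cells. Its unstimulated arrays were close together and inside the range of the LPS arrays, of which replicate 3 was the lowest, and the difference was -0.04 (SE 0.35, adjusted p = 0.97) with all arrays and 0.21 (SE 0.34, adjusted p = 0.73) without replicate 3. Neither Cd83 nor Ccr7 passed the test, while 19 of the 26 genes of their list rose without replicate 3. That test uses 1 spread shared by all 6 groups. Without replicate 3, the LPS arrays had an SD of 0.21 for Cd83 and 0.23 for Ccr7. On the unstimulated arrays the SD was 0.05 for Cd83 and 0.07 for Ccr7.

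Antigen presentation genes of class I and class II were unlike in their counts. Of 17 genes of class I loading and the immunoproteasome, 3 rose and 0 fell with all arrays (median 0.49), and 6 rose and 0 fell without replicate 3 (median 0.66). Tap1, a peptide transporter subunit, had 3.34, 3.51, 0.98, 2.32 and 1.75 in LPS cells, against 1.1, 1.49, 1.22, 0.67 and 0.46 in unstimulated cells. LPS replicates 4 and 5 were lower than replicates 1 and 2, and the difference was 1.39 (SE 0.41, adjusted p = 0.0242) with all arrays and 1.74 (SE 0.39, adjusted p = 0.00147) without replicate 3. Psmb9, an immunoproteasome subunit, rose by 1.01 (1.4 without replicate 3) and the loading factor Tapbpl by 0.96 (1.33 without replicate 3). Of 18 genes of class II and lysosomal processing, 0 passed limma's test with all arrays, where the differences ran from -0.78 for the protease gene Ctsd to 0.52 for H2-Oa (median -0.22). Without replicate 3 the median was -0.24, and 2 genes passed. H2-Oa, a subunit of the H2-O modulator of peptide loading, had 3.65, 3.58, 2.27, 3.72 and 3.73 in LPS cells, against 2.91, 2.88, 3.09, 2.95 and 2.52 in unstimulated cells, with the 4 LPS arrays other than replicate 3 above all unstimulated arrays. Its difference was 0.8 (SE 0.28, adjusted p = 0.0412) without replicate 3, and it missed the threshold with the scanner software's ratio, with median centring and with the Cy5 channel alone. The other was Rfxap, a factor that binds class II promoters, at -0.34.

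Uptake and pattern recognition receptors changed in both directions. Of 24 tested, 4 rose and 2 fell with all arrays (median 0.39), and 6 rose and 2 fell without replicate 3 (median 0.50). Clec4e (Mincle), a receptor for mycobacterial glycolipids and dead cells, rose by 3.39 (4.03 without replicate 3). Marco, a scavenger receptor for bacteria, had 5.27, 4.99, 3.28, 5.06 and 5.11 in LPS cells, against 1.75, 1.44, 1.57, 2.25 and 1.99 in unstimulated cells. All 5 LPS arrays were above the unstimulated arrays, with replicate 3 between the groups. The difference was 2.94 (SE 0.43, adjusted p = 0.000283) with all arrays and 3.31 (SE 0.41, adjusted p = 1.6e-06) without replicate 3.

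The Fc receptors for IgG moved oppositely. Fcgr1, the activating high-affinity receptor, rose by 1.6 (1.9 without replicate 3), and Fcgr2b, the inhibitory receptor, had 2.45, 2.5, 3.83, 1.91 and 2.04 in LPS cells, against 3.69, 3.8, 3.81, 3.53 and 3.35 in unstimulated cells. Apart from replicate 3, the LPS arrays were below all unstimulated arrays and replicate 3 was the highest of all 10. The difference was -1.09 (SE 0.27, adjusted p = 0.00853) with all arrays and -1.41 (SE 0.22, adjusted p = 3.31e-05) without replicate 3. The oxidised LDL receptor Olr1 rose by 1.07 (1.23 without replicate 3). Trem2, a lipid-sensing receptor of macrophages, had -0.84 (-0.97 without replicate 3), but 0.02 within slide 7, and its groups overlapped.

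Of 30 adhesion, matrix and protease genes 6 rose with all arrays and 10 without replicate 3, and 0 fell, with medians of 0.38 and 0.42. Timp1, an inhibitor of matrix metalloproteinases, had 1.06, 1.21, -2.4, 0.35 and 0.11 in LPS cells, against -2.83, -2.94, -2.91, -2.69 and -2.7 in unstimulated cells. Replicate 3 was slightly above the unstimulated arrays and replicates 1 and 2 were highest. The difference was 2.88 (SE 0.65, adjusted p = 0.00451) with all arrays and 3.49 (SE 0.61, adjusted p = 0.000103) without replicate 3. Serpinb2, which encodes a plasminogen activator inhibitor, rose by 2.7 (3.03 without replicate 3).

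Acute phase genes rose in part. Of 17 complement and acute phase genes, 5 rose with all arrays (median 0.64) and 6 without replicate 3 (median 0.53), and 0 fell. Saa3, an acute phase apolipoprotein made outside the liver, had 3.17, 3.48, -2.53, 0.88 and 1.75 in LPS cells, against -2.64, -2.61, -2.7, -2.53 and -2.08 in unstimulated cells. LPS replicates 1 and 2 were well above replicates 4 and 5, and replicate 3 was within the unstimulated range. The difference was 3.86 (SE 1, adjusted p = 0.0111) with all arrays and 4.83 (SE 0.92, adjusted p = 0.000281) without replicate 3. Lcn2, which binds bacterial siderophores, rose by 2.45 (2.94 without replicate 3) and the protease inhibitor Slpi by 1.98 (2.53 without replicate 3).

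In metal handling and redox, 5 of 25 genes rose and 2 fell with all arrays (median 0.23), and 5 rose and 3 fell without replicate 3 (median 0.27). Sod2, the mitochondrial superoxide dismutase, had 2.92, 3.25, 1.08, 1.33 and 0.97 in LPS cells, against 0.16, 0.13, 0.11, 0.21 and -0.42 in unstimulated cells. Each of the 5 LPS arrays was above the unstimulated arrays, and here replicate 3 was near LPS replicates 4 and 5. The difference was 1.87 (SE 0.57, adjusted p = 0.0304) with all arrays and 2.08 (SE 0.6, adjusted p = 0.0125) without replicate 3. The peroxiredoxin gene Prdx1 rose by 1.45 (1.6 without replicate 3), the NADPH oxidase subunit gene Cybb by 1.34 (1.53 without replicate 3) and the iron transporter gene Slc11a2 by 0.94 (1.04 without replicate 3). Tfrc, the transferrin receptor for iron uptake, had -0.74, -1.04, 1.24, -0.01 and -0.43 in LPS cells, against 0.99, 0.77, 0.49, 1.42 and 1.05 in unstimulated cells. Replicate 3 was within the unstimulated range, the other 4 LPS arrays were below it, and the difference was -1.14 (SE 0.33, adjusted p = 0.021) with all arrays and -1.5 (SE 0.28, adjusted p = 0.000241) without replicate 3. Gclc, which makes the precursor of glutathione, had -0.61 (-0.76 without replicate 3).

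Survival and death genes rose without a fall, 7 of 21 with all arrays (median 0.31) and 11 without replicate 3 (median 0.40). Cflar, an inhibitor of caspase-8, had 3.85, 3.99, 0.62, 2.97 and 3.15 in LPS cells, against 0.93, 1, 0.96, 1.07 and 0.76 in unstimulated cells. Replicate 3 was below all unstimulated arrays and the other 4 LPS arrays were well above them. The difference was 1.97 (SE 0.45, adjusted p = 0.00463) with all arrays and 2.54 (SE 0.35, adjusted p = 5.25e-06) without replicate 3. Birc3, an inhibitor of apoptosis protein, rose by 1 (1.32 without replicate 3), the anti-apoptotic Bcl2l1 by 0.97 (1.09 without replicate 3) and the death receptor gene Fas by 0.93 (1.28 without replicate 3).

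In the SLAM family, receptors through which immune cells touch each other, 2 of 10 genes rose and 2 fell with all arrays (median 0.24), and 4 rose and 2 fell without replicate 3 (median 0.37). Slamf7 had 5.09, 5.14, 2.74, 3.97 and 4.06 in LPS cells, against 2.77, 3.18, 3.22, 2.39 and 1.62 in unstimulated cells. Cd244a had 1.61, 1.51, 3.39, 1.6 and 2.01 in LPS cells, against 4.02, 3.84, 4.37, 4.33 and 4.99 in unstimulated cells. LPS replicates 1, 2, 4 and 5 were above the unstimulated arrays for Slamf7 and below them for Cd244a, and for Cd244a replicate 3 was below them too. The difference was 1.56 (SE 0.43, adjusted p = 0.0165) for Slamf7 and -2.29 (SE 0.44, adjusted p = 0.00141) for Cd244a with all arrays, and 1.93 and -2.63 without replicate 3. Slamf1 rose by 0.75 (0.93 without replicate 3), and Sh2d1b1, an adaptor of these receptors, had -1.96 (-2.32 without replicate 3), with no overlap between the groups.

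Regulators of G protein signalling and metabolite receptors split as well. Of 26, 3 rose and 2 fell with all arrays (median 0.03), and 6 rose and 4 fell without replicate 3 (median 0.13). Rgs18 had 1.43, 1.17, 3.26, 1.74 and 2.17 in LPS cells, against 3.46, 3.38, 3.42, 3.43 and 4.03 in unstimulated cells. Every LPS array was below the unstimulated arrays, replicate 3 by little, and the difference was -1.59 (SE 0.31, adjusted p = 0.00141) with all arrays and -1.92 (SE 0.27, adjusted p = 6.68e-06) without replicate 3. Rgs2 had -1.33 (-1.45 without replicate 3) and Rgs14 0.68 (0.82 without replicate 3). The nucleotide receptor P2ry2 rose by 0.98 (1 without replicate 3). Gpr84, a receptor for medium-chain fatty acids, had 3.22, 2.8, 3.55, 3.97 and 3.74 in LPS cells, against 2.25, 0.29, 0.48, 3.56 and 2.56 in unstimulated cells. Its unstimulated arrays were widely spread and overlapped the LPS arrays. The difference was 1.63 (SE 0.43, adjusted p = 0.0131) with all arrays and 1.61 (SE 0.47, adjusted p = 0.0128) without replicate 3, but -0.05 within slide 7.

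Transcription factors and receptors of dendritic cells and their precursors did not move as a group. Of 30 tested, 5 rose and 4 fell with all arrays (median 0.08), and 7 rose and 5 fell without replicate 3 (median 0.16). When each array was centred on its median the split without replicate 3 was 2 against 5. Zbtb46, a factor of classical dendritic cells, had 2.68, 2.64, 0.75, 1.98 and 1.88 in LPS cells, against 1.04, 0.71, 0.62, 1.33 and 1.13 in unstimulated cells. Replicate 3 was within the unstimulated range and the other 4 LPS arrays were above it, and the difference was 1.02 (SE 0.24, adjusted p = 0.00568) with all arrays and 1.33 (SE 0.18, adjusted p = 5.67e-06) without replicate 3. Klf6 rose by 0.65 (0.93 without replicate 3) and Cebpd by 0.58 (0.65 without replicate 3), both inducible factors of myeloid cells. Cd24a, a surface protein of one classical dendritic cell lineage and of immature blood cells, had -1.69 (-2.13 without replicate 3).

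Of 34 cell cycle genes, 3 rose and 2 fell with all arrays, and 3 rose and 4 fell without replicate 3, with medians of -0.16 and -0.38. On the unstimulated arrays alone the list's median ran from -0.44 to 0.51. Ccnd2, the cyclin D2 that starts G1, had 3.71, 3.91, 1.56, 2.97 and 2.6 in LPS cells, against 0.79, -0.89, -0.65, 1.56 and 0.62 in unstimulated cells. The groups did not overlap, although replicate 3 met the highest unstimulated array within rounding. The difference was 2.66 (SE 0.41, adjusted p = 0.000352) with all arrays and 3.01 (SE 0.39, adjusted p = 2.29e-06) without replicate 3. The cell cycle inhibitor gene Cdkn1a rose by 1 (1.12 without replicate 3) and the kinase gene Cdk6 by 0.93 (1.16 without replicate 3), while Cdk4 had -0.6 (-0.78 without replicate 3) and the S phase factor E2f2 -1.43 (-1.84 without replicate 3).

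Of 23 genes of glucose transport and glycolysis, 3 rose and 1 fell with all arrays (median -0.04), and 3 rose and 2 fell without replicate 3 (median -0.11). Hif1a, the hypoxia factor that induces glycolytic enzymes, had 2.1, 2.35, 0.97, 0.52 and 0.69 in LPS cells, against 0.38, 0.39, 0.55, 0.27 and 0.05 in unstimulated cells. Replicates 1 and 2 were far above the unstimulated arrays, and replicate 4 was within their range. The difference was 1 (SE 0.33, adjusted p = 0.0484) with all arrays and 1.09 (SE 0.35, adjusted p = 0.026) without replicate 3. The hexose transporter gene Slc2a6 rose by 1 (1.14 without replicate 3) and the phosphofructokinase gene Pfkp by 0.7 (0.78 without replicate 3), with overlapping groups for Pfkp, and Pfkfb4, a regulator of phosphofructokinase, had -0.83 (-1.03 without replicate 3).

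Mitochondrial genes were called mostly as falls. Of 34, 1 rose and 5 fell with all arrays (median -0.22), and 1 rose and 9 fell without replicate 3 (median -0.34). Idh1, the cytosolic isocitrate dehydrogenase that makes NADPH, was listed with them and had 0.8, 0.64, 2.53, 1.64 and 1.89 in LPS cells, against 2.74, 2.95, 3, 2.53 and 2.89 in unstimulated cells. Replicate 3 met the lowest unstimulated array and the other 4 LPS arrays were below all of them, and the difference was -1.32 (SE 0.29, adjusted p = 0.00355) with all arrays and -1.58 (SE 0.27, adjusted p = 0.000103) without replicate 3. Ppargc1b, a coactivator of mitochondrial genes, had -1.08 (-1.41 without replicate 3), the ATP synthase subunit Atp5c1 -0.49 (-0.64 without replicate 3) and the complex I subunit Ndufs1 -0.45 (-0.61 without replicate 3). Cytochrome c, the product of Cycs, was the exception, with a rise of 0.7 (0.72 without replicate 3).

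Of 33 lipid genes, 2 rose and 3 fell with all arrays (median -0.06), and 3 rose and 8 fell without replicate 3 (median -0.18). Dhcr7, which makes cholesterol in the last step of its synthesis, had -1.5, -1.36, 1.11, -1.76 and -1.68 in LPS cells, against 0.9, 1.37, 1.2, 0.05 and -0.22 in unstimulated cells. Replicate 3 was within the unstimulated range, and the difference was -1.7 (SE 0.41, adjusted p = 0.00691) with all arrays and -2.23 (SE 0.31, adjusted p = 5.54e-06) without replicate 3. Mvd, an earlier enzyme of the pathway, had -0.72 (-0.92 without replicate 3), and Pparg, a nuclear receptor for lipids, -1.39 (-1.66 without replicate 3). Ch25h, whose product 25-hydroxycholesterol blocks sterol synthesis, had 5.78, 5.94, 2.35, 3.66 and 4.17 in LPS cells, against 2.01, 2.1, 2.12, 2.32 and 2.33 in unstimulated cells. All 5 LPS arrays were above the unstimulated arrays, replicate 3 by the least, and the difference was 2.2 (SE 0.48, adjusted p = 0.00321) with all arrays and 2.71 (SE 0.42, adjusted p = 2.41e-05) without replicate 3. Acsl1, which activates fatty acids, rose by 2.55 (2.89 without replicate 3).

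Control cells after 24 h of LPS were set against the 6 h arrays, which both comparisons share. Of 11263 genes, 617 (5.48%) differed, 371 higher (3.29%) and 246 lower (2.18%) at 24 h. Without LPS 6 h replicate 3 the count was 1222 (10.8%), 630 higher (5.59%) and 592 lower (5.26%), and it was 322 without replicate 1 and 338 without replicate 2. The chemokine Ccl3 averaged 0.57 in unstimulated cells, 3.4 at 6 h and 1.12 at 24 h, a later difference of -2.28 (SE 0.6, adjusted p = 0.0245), or -2.57 without replicate 3. Edn1 and Dusp2 were likewise lower at 24 h than at 6 h, with differences of -2.18 (-3 without replicate 3) and -1.66 (-2.23). Cxcr4, which fell at 6 h, averaged 2.04 in unstimulated cells, 0.19 at 6 h and 2.44 at 24 h, a later difference of 2.25 (SE 0.33, adjusted p = 0.00011), or 2.24 without replicate 3. Galnt14 and Gclc were likewise higher at 24 h, with differences of 1.63 (1.7 without replicate 3) and 1.27 (1.42). For Cxcl10 and Il6 the call turned on replicate 3. With all arrays Cxcl10 differed by -3.21 (adjusted p = 0.134) and Il6 by -0.41 (adjusted p = 0.885), and neither passed. Without replicate 3 both were lower at 24 h, with differences of -4.89 for Cxcl10 (adjusted p = 0.000419) and -2.06 for Il6 (adjusted p = 0.0197).

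The same 6 h response was measured in CD11c-Cre IRF-4 flox/flox cells, and the difference between the responses, KO minus control, was tested directly. It passed for 49 genes (0.435%), 33 with a higher change in KO cells (0.293%) and 16 with a lower change (0.142%). Without LPS 6 h replicate 3 it passed for 81 (0.719%), 49 higher (0.435%) and 32 lower (0.284%), and 47 genes passed both times. Irf4 itself averaged -0.11 in KO cells after 6 h and -1.49 in unstimulated KO cells, against 2.31 in control cells after 6 h and 1.41 in unstimulated control cells. Csf2 had a response of 2.88 in KO cells and 0.22 (0.27 without replicate 3) in control cells, a difference of 2.66 (SE 0.42, adjusted p = 0.00242), or 2.61 without replicate 3. The response of Gbp2 was 3.55 in KO cells and 1.13 (1.55 without replicate 3) in control cells, and that of Zbp1 4.22 in KO cells and 1.83 (2.22 without replicate 3) in control cells. Icosl had 3.48 in KO cells and 0.96 (1.15 without replicate 3) in control cells, Icam1 2.32 in KO cells and 0.82 (1.09 without replicate 3) in control cells, and Nfkbie 2.76 in KO cells and 1.15 (1.33 without replicate 3) in control cells. The differences of these 5 genes passed with and without replicate 3. Their unstimulated averages were lower in KO than in control cells. They were 0.63 and 2.44 for Gbp2, -0.17 and 1.73 for Zbp1, and 0.94 and 2.17 for Icosl. For Icam1 they were 0.99 and 2.44, and for Nfkbie 0.12 and 1.42. After 6 h these averages, without replicate 3, were 4.18 and 3.99 for Gbp2 and 4.05 and 3.95 for Zbp1. They were 4.42 and 3.32 for Icosl, 3.31 and 3.52 for Icam1, and 2.88 and 2.75 for Nfkbie.

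For 4 further named genes the difference passed without replicate 3 only. Dusp2 had a response of 0.75 in KO cells and 2.07 (2.64 without replicate 3) in control cells. Its difference was -1.32 (adjusted p = 0.527) with all arrays and passed without replicate 3, at -1.89 (adjusted p = 0.0127). Fcgr2b had -0.14 in KO cells and -1.09 (-1.41 without replicate 3) in control cells, a difference of 0.95 (adjusted p = 0.453) with all arrays and 1.27 (adjusted p = 0.0473) without replicate 3. Psmb9 and Il12a had 1.25 (adjusted p = 0.019) and 1.7 (adjusted p = 0.0424) without replicate 3, against 1.64 and 2.11 with all arrays (adjusted p = 0.0556 and 0.0525). For Cxcl10 the responses were 10.48 in KO cells and 7.45 (9.13 without replicate 3) in control cells. Its difference passed in neither, at 3.03 (adjusted p = 0.735) with all arrays and 1.36 (adjusted p = 1) without replicate 3. These differences use the control arrays described above and are not independent of them.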

How the data were processed

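RNA of 30 samples, 5 biological replicates in each of 6 groups per the labels, was measured on Agilent 2-colour arrays, and the file headers name Feature Extraction 10.7.3.1 as the scanner software. The deposited files hold spot intensity per channel, and the authors' deposited value table holds log2 ratios that correlated with the loess-normalised log2 ratios described below at 0.999885 to 0.999998 per array, with column medians of 0.00584 to 0.0183, so its direction is Cy5 over Cy3. The deposited files also hold the scanner software's log10 ratios, per the file headers, which served as an alternative. The submitters' processing notes name limma, with no version given. No dye swap was made, so dye bias of a probe stays in its ratio and cancels only in differences between arrays.

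From the scanner intensities, background was corrected with normexp (offset 50) and each array was normalised by loess in limma 3.58.1 under R 4.3.3, with 1639 control spots left out. Of 41174 probes, 22951 were named through their accession for 16358 genes. A probe was kept if its Cy5 signal was well above background on every array of some group, and the brightest kept probe stood for its gene (11263 genes, 25 with a missing spot). One model with a mean per group was fitted to all 30 arrays, with 24 residual degrees of freedom (23 without LPS 6 h replicate 3), and adjusted p-values are limma's with Benjamini-Hochberg adjustment at 0.05.

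Tested on simulated data for the LPS 6 h comparison over 11263 genes, the fit recovered 97% of 100 genes changed by a log2 size of 2 and 77% of 100 changed by a log2 size of 1, with 9 false calls. The simulated noise was independent between arrays, with no array set apart and no sets of replicates or slides. These rates therefore need not hold for the measured arrays. The 60 pairs of replicate arrays each differed by at least 2.07 times the spread of repeated spots, so none was counted as the same sample. Deviations from the group means correlated between same-numbered arrays at 0.707, 0.754, 0.639 and 0.794 for numbers 1, 2, 4 and 5 without number 3, and at 0.0828 for number 3 with all arrays. The numbers were taken as pairs without number 3 and not with it. Without number 3, LPS number 1 correlated most with unstimulated number 2, so the numbers need not mark true pairs.

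The members, gene lists and tests were chosen with earlier results of these data known. Of 760 listed genes 664 were tested, 52 did not pass the filter and 44 had no named probe. Named genes are the 12 largest rises and 12 largest falls among genes called with and without replicate 3, leading called members of each list in both directions, further members that give a role a value, and Irf4. Promoters are those of the 6 largest risers with a window in the RefSeq table, passing over Iigp1. Alternatives covered the ratio, centring, channel, background, filter, probe summary, spread, array weights, slide, replicate number and each replicate left out. Some genes that these rules name are not reported here.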

Additional observations from a re-analysis of the deposited data

Results flagged for a closer look

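Among 154 named genes in each compared group of 5 arrays, 69 groups of values had 1 array whose gap to its neighbour exceeded 0.71 of the whole range, where chance gives about 1 in 20 groups. Most of these genes were chosen as called responders, with LPS replicate 3 known to lie apart, so that rate is no measure for its share of these gaps. LPS 6 h replicate 3 was the distant array in 57 of them, unstimulated replicate 5 in 10, and unstimulated replicates 3 and 1 in 1 each. Out of 154 genes, the unstimulated counts stood not far above 1 in 20. The cause of the gaps was not tested.

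For LPS 6 h replicate 3 the gap as a share of the range was 0.71 for Tbk1, 0.72 for Pparg, 0.73 for Cd244a and Icam1, 0.74 for Cxcl3, Ccl5, Usp18 and Cd24a, 0.75 for Ifit1, Ifit2 and Gadd45b, and 0.76 for Ifnb1, Tgtp1 and Ifi204. It was 0.77 for Nfe2, Irf7 and Ppargc1b, 0.78 for Rsad2, Zbp1 and Gbp2, 0.79 for E2f2, 0.8 for Map3k8, Cxcl1, Gbp5, Clec4e and Cdk6, 0.81 for Ifi205, Ly96, Il12a and Fas, and 0.82 for Daglb and Serpinb2. It was 0.83 for Ifi209 and Cd86, 0.84 for Il1a and Ltb4r1, 0.85 for Il15 and Slpi, 0.86 for Lyl1, Marco and Dhcr7, and 0.87 for Ptgs1, Ifi47 and Cd80. The widest gaps were 0.89 for Isg15, Hdc and Psmb9, 0.9 for Il1b, Asb4, Lta4h and H2-Oa, 0.91 for Cmpk2, Tnf and Cd200, 0.92 for Il6 and Casp4, and 0.93 for Dusp14.

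For unstimulated replicate 5 the share was 0.73 for Saa3, 0.74 for Irf7, 0.75 for Cxcr4 and Klf6, 0.8 for Gadd45b, 0.81 for Slc7a11, 0.84 for Sod2, 0.88 for Rgs18, and 0.91 for Irak3 and Lta4h. It was 0.76 for Ccrl2 on unstimulated replicate 3 and 0.8 for Slamf1 on unstimulated replicate 1.

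The change after 6 h of LPS differed between KO and control cells, by limma's test of the difference, for 7 of the named genes with all arrays, each with a higher change in KO cells: Csf2 by 2.66, Icosl by 2.53, Gbp2 by 2.42, Zbp1 by 2.39, Slc2a6 by 1.76, Nfkbie by 1.62 and Icam1 by 1.5 on the log2 scale. Without LPS 6 h replicate 3 the difference passed for these 7 and for 4 more, lower in KO cells for Dusp2 (-1.89) and higher for Fcgr2b (1.27), Psmb9 (1.25) and Il12a (1.7).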

How the results depend on the processing

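For LPS 6 h against unstimulated cells with all arrays (1310 genes), the count was 660 with median centring, 66 with the spread of the compared groups alone, 5880 with array weights, 3874 with slide as a fixed block, 2479 with the replicate number as a block and 2879 without the later slide, and it ran from 741 to 2597 with 1 array left out. Without LPS replicate 3 (2597), it was 7124, 4242 and 4336 with array weights, slide and replicate blocks, and leaving out a further array gave 2073 to 2823. With the replicate block and without replicate 3, 0 named calls were lost. For 24 h against 6 h (617) the counts were 208, 75, 3271, 1044, 1570 and 1070 in the order of the first sentence, and 322 to 1222 with 1 array left out. For KO minus control (49), they were 28 with backgrounds as scanned, 1478 with array weights, 154 with the replicate block, 143 without the later slide, 35 with slide as a fixed block (10 higher and 25 lower) and 35 to 81 with 1 array left out. The cause of these shifts was not tested, beyond the fewer arrays in the fits that leave some out.

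Of the 154 named genes, 125 lost their call with all arrays where only the compared groups gave the spread. Signs turned for Tbxas1 (0.14, and 0.3 without replicate 3) with the scanner ratio, and with slide as a fixed block or within slide 7 for Alox5ap (0.05), Gpr84 (-0.05) and Trem2 (0.02). Ccr7 and Cd83, near 0 with all arrays, were 0.25 and 0.21 without replicate 3 or without the later slide, 0.31 and 0.13 within slide 7 or with slide as a fixed block, and 0.2 each with array weights. With 1 array left out Ccr7 ran from -0.18 to 0.25 and Cd83 from -0.17 to 0.21. Cd83 was 0.17 with Cy5 alone and 0.2 with backgrounds as scanned. In a comparison of matching replicates chosen after seeing the data, Ccr7 and Cd83 were 0.28 and 0.19 in replicates 1 and 2, and 0.24 and 0.22 in replicates 4 and 5.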
